A study of Mus musculus with 1 sample.

Results

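The 5 genes described here, Mcpt1, Mcpt2, Mcpt4, Mcpt8 and Cma1, encode mast cell and basophil proteases, and they were 5 of the 32285 genes counted. They were chosen by their UMI counts in this library (unique molecular identifiers, 1 per captured RNA molecule), with the cells that held them already known, so their levels below are a description. The working question was whether cytotoxic lymphocytes held them. The counts went against lymphocytes as the main holders: 91.9% of the UMIs of these genes lay in 2 cells with a mast cell profile. T and NK-like cells held 0.531% (0.214 to 1.09) of them and 0.859% of all UMIs. Outside the 2 cells, T and NK-like cells held 7 of 107 such UMIs (6.54%, 2.67 to 13.0), a share taken after seeing the data.

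The study grew MC38 cells, a mouse colon carcinoma line, as tumors under the skin of the right flank of female C57BL/6J mice bought at 4 to 6 weeks of age, and asked how the proton pump subunit ATP6V0A1 alters the tumor microenvironment. The library analysed here carries the genotype label WT and was taken as the control pool, whose MC38 cells carried a non-targeting shRNA in a lentiviral vector with puromycin selection. Equal parts of 5 tumors were mixed before sequencing, so 1 library stands for 5 tumors and no cell can be traced to a mouse. The Atp6v0a1 knockdown pool was not analysed here. The cell type label reads epithelial, but the dissociated tumors also held host cells, among them the lymphocytes and mast cells described below.

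The library held 106631000 UMIs in 5307 called cells, with 511 to 231902 UMIs per cell (median 9248). After removal of 864 cells, 4443 remained. A cluster of 151 T and NK-like cells had a median of 4427 UMIs and comprised 13 NK-like, 63 Cd8 T-like, 24 Cd4 T-like and 51 other cells. The other main classes were 1323 myeloid-like cells and 1784 cells high in Shisal2b and Rhox5, genes of the tumor cell list used here. With 1 library there is no replicate and no test: the 95% intervals below, exact Poisson for levels and exact Clopper-Pearson for shares, cover counting error only.

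Mast cells store serine proteases in secretory granules bound to the proteoglycan serglycin, and cytotoxic lymphocytes store the related granzymes in the same way. In the mouse, chymases of mast cells, cathepsin G and a family of granzymes are neighbours in a single cluster of genes, the chymase locus. Mcpt1 and Mcpt2 are known as proteases of mucosal mast cells, Mcpt4 and Cma1 (also called mast cell protease 5) as chymases of connective tissue mast cells, and Mcpt8 as a protease of basophils.

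In the GRCm38 build with the GENCODE M21 annotation, the locus occupied chr14:55941451-56262260, 320.8 kb with 15 protein-coding genes. The 5 genes lay in its first 143.8 kb: Cma1 at chr14:55941451-55944675 on the minus strand, Mcpt1 at chr14:56017971-56020384 and Mcpt2 at chr14:56042041-56044642 on the plus strand, and Mcpt4 at chr14:56059629-56062313 and Mcpt8 at chr14:56082166-56085273 on the minus strand. Cma2 and Mcpt9 lay within the same stretch. Ctsg followed Mcpt8, and the granzyme genes Gzme, Gzmd, Gzmg, Gzmn, Gzmf, Gzmc and Gzmb made up the rest. Promoter windows of RefSeq (GRCm38.p6, 250 bases before to 50 after the start) were at hand for Cma1, Mcpt1, Mcpt4 and Mcpt8. They are printed because the genes were read from the same cells, and 1 pair of windows is nearly alike while the others are not. The capitals mark GATAAG, a motif bound by factors of the GATA family, and TATAAA, the core of a TATA box. Both strands were searched.
Mcpt1: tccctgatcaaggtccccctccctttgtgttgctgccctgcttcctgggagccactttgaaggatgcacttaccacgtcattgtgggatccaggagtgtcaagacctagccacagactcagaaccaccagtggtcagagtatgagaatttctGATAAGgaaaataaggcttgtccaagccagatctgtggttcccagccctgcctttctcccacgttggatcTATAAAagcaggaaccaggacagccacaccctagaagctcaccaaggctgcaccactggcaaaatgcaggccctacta
Mcpt4: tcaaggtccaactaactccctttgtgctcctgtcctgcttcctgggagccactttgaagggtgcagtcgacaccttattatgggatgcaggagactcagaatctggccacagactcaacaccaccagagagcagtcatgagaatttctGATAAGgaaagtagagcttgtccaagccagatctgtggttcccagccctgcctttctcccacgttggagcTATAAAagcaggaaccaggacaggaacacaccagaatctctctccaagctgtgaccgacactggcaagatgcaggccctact
Cma1: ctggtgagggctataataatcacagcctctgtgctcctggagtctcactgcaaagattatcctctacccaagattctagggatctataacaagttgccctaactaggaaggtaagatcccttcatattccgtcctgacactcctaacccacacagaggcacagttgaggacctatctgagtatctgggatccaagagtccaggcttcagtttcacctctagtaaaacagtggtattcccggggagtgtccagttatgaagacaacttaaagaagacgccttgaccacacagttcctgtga
Mcpt8: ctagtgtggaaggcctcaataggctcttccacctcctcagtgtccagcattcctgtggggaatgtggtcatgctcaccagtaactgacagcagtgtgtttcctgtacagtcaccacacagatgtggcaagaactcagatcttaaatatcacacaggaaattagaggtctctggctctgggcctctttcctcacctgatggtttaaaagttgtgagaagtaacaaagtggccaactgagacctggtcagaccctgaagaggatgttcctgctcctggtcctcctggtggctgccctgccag
The windows were chr14:56017714-56018013 (plus strand) for Mcpt1, chr14:56062261-56062560 (minus) for Mcpt4, chr14:55944626-55944925 (minus) for Cma1 and chr14:56085148-56085447 (minus) for Mcpt8. The windows of Mcpt1 and Mcpt4 were identical at 249 of 291 aligned bases (85.6%). Each held 1 GATAAG, 98 and 102 bases before the start, and 1 TATAAA, 28 and 32 bases before it. The windows of Cma1 and Mcpt8 held neither motif and were 65.0% and 66.3% identical to that of Mcpt1. Of all 32851 windows of the same length, 7.44% held GATAAG, 13.6% held TATAAA and 1.45% held both. None of the windows of the locus granzymes held GATAAG, and those of Mcpt9 and Ctsg lacked it too. The windows of Gzmc, Gzmd, Gzme, Gzmf and Gzmg were 86.05% to 93.98% identical in pairs, so they are not separate observations.

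To ask which cells held the 5 genes, their UMIs were summed in each cell. The kept cells held 1319 UMIs in 99 cells, and 1212 of these UMIs (91.9%, 90.3 to 93.3) lay in the 2 mast-like cells, which held 0.0118% of all UMIs. These were the only kept cells with UMIs of both Cpa3, the carboxypeptidase of mast cell granules, and Kit, the stem cell factor receptor. The remaining 107 UMIs were spread over 97 cells, of which 91 held 1 UMI, 4 held 2, 1 held 3 and 1 held 5. No kept cell lay between 5 and 416 UMIs. The removed cells held 19 UMIs in 17 cells, with at most 2 in any of them.

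**Figure D1:**
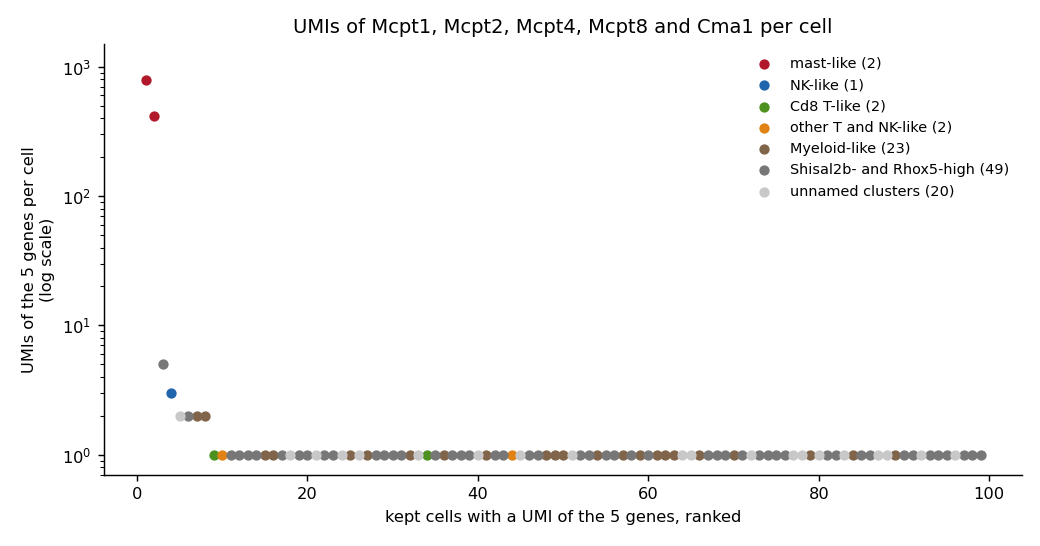
UMIs of the 5 genes per cell (log axis) in the 99 kept cells that held any, ranked from the highest and colored by cell class, with the number of cells in the key. The 2 mast-like cells stand at 796 and 416 UMIs, and every other cell lies at 5 or fewer.

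The genes differed in how far they were kept to the mast-like cells. Mcpt1 had 257 UMIs, 253 of them (98.4%) in the mast-like cells and the other 4 in as many Shisal2b- and Rhox5-high cells. Mcpt2, the most counted of the 5, had 699 UMIs, 650 of them (93.0%) in the mast-like cells and 49 in 46 other cells. Mcpt8 had 4 UMIs, all in 1 mast-like cell. Mcpt4 and Cma1 were the least confined: 88 of 107 Mcpt4 UMIs (82.2%) and 217 of 252 Cma1 UMIs (86.1%) lay in the mast-like cells, with 19 and 35 UMIs elsewhere. No cell outside the mast-like ones held over 3 UMIs of any of these genes.

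The mast-like cells were not alike. Cell A had 6662 UMIs and cell B 4244, with 1.02% and 3.13% of them mitochondrial, and the 5 genes made up 11.9% (11.2 to 12.8) and 9.80% (8.92 to 10.7) of their UMIs. In cell A, Mcpt2 led with 493 UMIs, before Cma1 with 170, Mcpt4 with 67, Mcpt1 with 62 and Mcpt8 with 4. In cell B, Mcpt1 led with 191 UMIs, before Mcpt2 with 157, Cma1 with 47 and Mcpt4 with 21, and Mcpt8 was at 0, where 3 UMIs would be 707 UMIs per 1000000 UMIs of the cell (CPM). Mcpt1 per UMI was thus 4.84 times as high in cell B as in cell A (3.61 to 6.55), while Mcpt2 was at 0.50 (0.415 to 0.599), Mcpt4 at 0.492 (0.286 to 0.814) and Cma1 at 0.434 (0.307 to 0.603) of its level in cell A. Mcpt1 and Mcpt4 thus moved in opposite directions. Their promoter windows are the most alike of the 4 printed above, and a link between windows and levels was not tested. The number of Mcpt1 UMIs per Mcpt2 UMI was 0.126 in cell A and 1.22 in cell B.

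**Figure D2:**
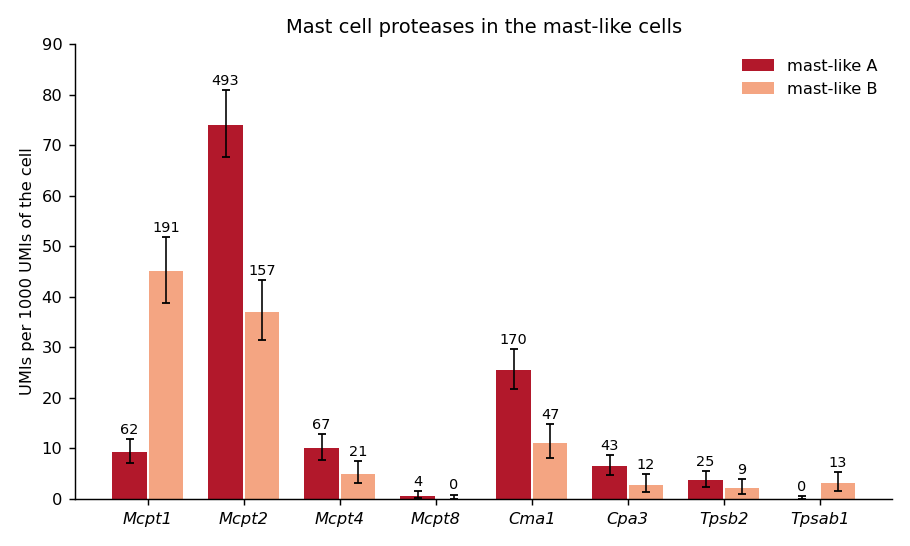
UMIs per 1000 UMIs of the cell for the 5 proteases, Cpa3 and the tryptases Tpsb2 and Tpsab1 in mast-like cells A and B, with 95% Poisson intervals as bars and the UMI count above each. Mcpt1 and Tpsab1 were higher in cell B, with 191 against 62 and 13 against 0 UMIs, and Mcpt2, Mcpt4, Cma1 and Cpa3 were higher in cell A.

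The other mast cell genes split the cells further. Cpa3 had 43 UMIs in cell A and 12 in cell B, a ratio of 0.438 (0.210 to 0.846) per UMI. The tryptase Tpsb2 had 25 and 9 UMIs, whose ratio of 0.565 had an interval that included 1 (0.232 to 1.25). Tpsab1, the other tryptase, had 0 UMIs in cell A, where 3 UMIs would be 450 CPM, and 13 in cell B (3063 CPM). Hdc, the enzyme that makes histamine, had 10 and 1 UMIs, and the high affinity IgE receptor chain Fcer1a had 3 and 7. Kit had 3 UMIs in each, and Gata2, the GATA factor of mast cells, 1 in each. Gata2 was also found outside them, where 444 of the 1784 cells high in Shisal2b and Rhox5 held it. Of the 8 genes of the mast cell list, 7 were detected in cell A and 8 in cell B. In the clustering, cell A fell among 568 cells led by Flt3, Cd209a and Ccl22, and cell B among 417 shallow cells led by hemoglobin and immunoglobulin genes, so neither had been set apart before the cell by cell rule was applied. With a single cell of each kind, differences between mice, between cells and in RNA quality cannot be told apart.

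No basophil apart from the mast-like cells was detected beside Mcpt8. Prss34, another basophil protease, had no UMI in any kept cell, and Cd200r3, a surface receptor of basophils and mast cells, was detected in 2 kept cells. The basophil rule (a UMI of Prss34 or Cd200r3 and a UMI of Fcer1a, Ms4a2 or Hdc) was met by 1 cell, which was mast-like cell A, with 3 UMIs of Cd200r3, 3 of Ms4a2 and 6 of the 8 basophil list genes. All 4 Mcpt8 UMIs were in this cell, at 600 CPM (164 to 1537), beside 43 of Cpa3 and 493 of Mcpt2. Cell A therefore met both rules, and in the rest of the library 0 of 4442 kept cells held Mcpt8, which allows a share of up to 0.0675% for cells with an Mcpt8 UMI and sets no limit on cells that express the gene.

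To examine the lymphocytes, the 7 UMIs in T and NK-like cells were traced to their 5 cells. An NK-like cell with 9655 UMIs held 3 of Cma1, together with 7 of the NK receptor Ncr1, 14 of Klrb1c, 91 of Gzmb, 171 of Gzma and 42 of Prf1, which encodes perforin. A Cd8 T-like cell held 1 UMI of Mcpt4 beside 10 of Cd8a, 13 of Cd8b1 and 9 of Gzmb. A second Cd8 T-like cell held 1 UMI of Mcpt2 beside 15 of Cd3d, 1 of Cd8b1 and 0 of Gzmb. A T cell with 5 UMIs of Foxp3, the factor of regulatory T cells, held 1 UMI of Cma1 and 7 of Gzmb, and a cell with 1196 UMIs and 3 of Cd3e held 1 of Cma1. None of these cells, nor any other T and NK-like cell, held a UMI of Cpa3, Tpsb2, Tpsab1 or Hdc.

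The level of the 5 genes was 15.9 CPM (3.29 to 46.6) in NK-like cells, from 3 UMIs in 1 of 13 cells, and it was 0 without that cell. In Cd8 T-like cells it was 5.10 CPM (0.618 to 18.4), from 2 UMIs in 63 cells, and Cd4 T-like cells held none in 24 cells, where 3 UMIs would be 32.3 CPM. With 3 or fewer UMIs in each class, no ratio between NK-like and Cd8 T-like cells was formed. In the 2 mast-like cells the level was 111131 CPM (104962 to 117569).

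Low counts of the same kind were found in every other large class. The share of cells with a UMI of the 5 genes was 3.31% (1.08 to 7.56) in T and NK-like cells, 2.75% (2.04 to 3.62) in Shisal2b- and Rhox5-high cells, whose median depth was 37965 UMIs, and 1.74% (1.11 to 2.60) in myeloid-like cells, with a median of 10152. Per 100 cells there were 4.64 UMIs (1.86 to 9.55) in T and NK-like cells, and 2.67 (0.727 to 6.83) without the NK-like cell with 3. In all 4290 kept cells that were neither mast-like nor T and NK-like there were 2.33 (1.90 to 2.84). With each cell thinned to 1000 UMIs, 3 of 127 T and NK-like cells (2.36%, 0.490 to 6.75) held such a UMI, against 5 of 1323 myeloid-like cells (0.378%, 0.123 to 0.880) and 5 of 1780 Shisal2b- and Rhox5-high cells (0.281%, 0.0913 to 0.654), which left out 24, 0 and 4 shallower cells. In CPM the level was 8.82 (3.55 to 18.2) in T and NK-like, 1.74 (1.13 to 2.57) in myeloid-like and 0.732 (0.550 to 0.955) in Shisal2b- and Rhox5-high cells. In CPM the interval of the lymphocytes lay above those of the myeloid-like and the Shisal2b- and Rhox5-high cells. This rested in part on the NK-like cell, which held 3 of their 7 UMIs, and the CPM without it was not formed. Per cell, and after thinning to 1000 UMIs, the intervals overlapped. The lymphocytes did not stand above every class in CPM. Of the clusters that took no name, cluster 5 was at 13.7 CPM (6.59 to 25.3) and cluster 9 at 14.8 (1.80 to 53.6). Clusters 4, 8 and 11 were at 3.13, 5.46 and 0 CPM. Nearly all of these cells held 1 UMI. The part of free RNA in these counts, and in the 3 Cma1 UMIs of the NK-like cell, was not tested.

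**Figure D3:**
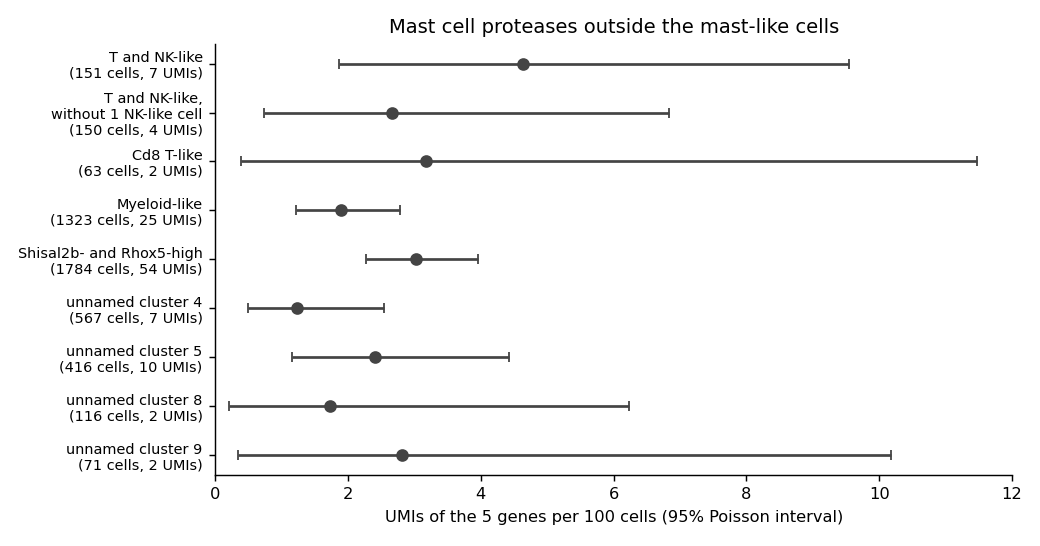
UMIs of the 5 genes per 100 cells in classes outside the mast-like cells, with 95% Poisson intervals as bars and the numbers of cells and UMIs beside each name. T and NK-like cells are drawn together, and of their classes only the Cd8 T-like cells are also drawn alone. Unnamed cluster 11, with 13 cells and 0 UMIs, is left out. T and NK-like cells stand at 4.64 with an interval from 1.86 to 9.55, which includes the value of 3.03 for the Shisal2b- and Rhox5-high cells.

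The mix of the 5 genes outside the mast-like cells was not that of the mast-like cells. Mcpt1 made up 20.9% of their UMIs in the mast-like cells and 3.74% (1.03 to 9.30) outside them, an interval that includes the 7.79% of cell A but not the 45.9% of cell B. Mcpt2 made up 53.6% and 45.8% (36.1 to 55.7). Mcpt4 was at 7.26% and 17.8% (11 to 26.3), above its share in cell A (8.42%) and in cell B (5.05%). Cma1 was at 17.9% and 32.7% (24.0 to 42.5), with 21.4% in cell A and 11.3% in cell B. The cell with the most UMIs outside the mast-like ones had 3157 UMIs and lay among the Shisal2b- and Rhox5-high cells, and it held 2 of Mcpt2, 1 of Mcpt4 and 2 of Cma1 beside 2 of Cpa3, 4 of Tpsb2, 1 of Tpsab1 and 0 of Kit.

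Co-detection with granzymes was then counted. Of the 5 T and NK-like cells with a UMI of the 5 genes, 3 also held Gzmb (60%, 14.7 to 94.7). Of the 146 without one, 74 held Gzmb (50.7%, 42.3 to 59.0). The interval of the first share contains the second, so no difference was detectable with 5 cells, whose median depth of 9587 UMIs was above the 4309 of the others. Prf1 was detected in 2 of the 5 and in 56 of the 146. Gzmc, Gzmd, Gzme, Gzmf and Gzmg were each at 0 in the 5 cells, and were detected in 19, 9, 6, 6 and 3 of the 146. In the opposite direction, mast-like cell B held 2 UMIs of Gzmb and cell A none, and neither held Gzmc to Gzmg, Gzma, Gzmk, Gzmm or Prf1.

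**Figure D4:**
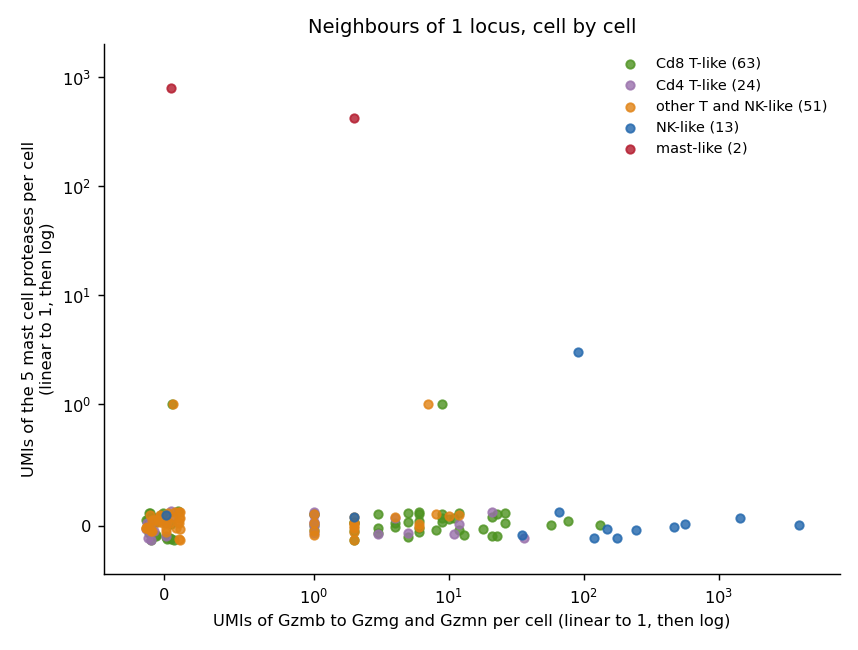
UMIs of the 5 mast cell proteases against UMIs of Gzmb to Gzmg and Gzmn in each of the 151 T and NK-like and 2 mast-like cells (axes linear to 1 and log above, cells at 0 spread slightly). The mast-like cells lie at 796 and 416 on the vertical axis with 0 and 2 granzyme UMIs, and the NK-like cells reach 3943 granzyme UMIs with at most 3 of the proteases.

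Along the locus the genes thus fell into groups by the cells that held them. The 5 genes had 366.8 (Mcpt8) to 59600 (Mcpt2) CPM in the mast-like cells. In contrast, Gzmc, Gzmd, Gzme, Gzmf and Gzmg had none there, where 3 UMIs would be 275 CPM. In NK-like cells these granzymes had 2598 (Gzmg) to 14336 (Gzmc) CPM, and Gzmb had 3698. T and NK-like cells held 96.1% to 97.6% of the kept UMIs of Gzmb to Gzmg. Gzmb, the granzyme of activated killer cells, was 2.60 times as high in NK-like as in Cd8 T-like cells (2.32 to 2.91), and Gzmc had 2698 UMIs in NK-like and 10 in Cd8 T-like cells. Much of this came from few cells: 1 NK-like cell with 33775 UMIs held 2010 of the 2012 Gzmf UMIs of its class, and its 3943 granzyme UMIs of the locus came with 0 of the 5 genes. A removed cell with 112046 UMIs and none of Ncr1, Klrb1c, Cd3e or Cd8a held a further 3727, also with 0 of the 5 genes.

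Ctsg, the gene of cathepsin G, lies between the groups and was found in cells of each. Of its 87 UMIs, 72 were in the NK-like cell with 33775 UMIs and 11 were in mast-like cell A, at 1651 CPM (824 to 2954), while cell B had 0. The other chymase genes were hardly detected: Cma2 had 1 UMI in the kept cells, Mcpt9 had 0, and the granzyme gene Gzmn had 0.

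**Figure D5:**
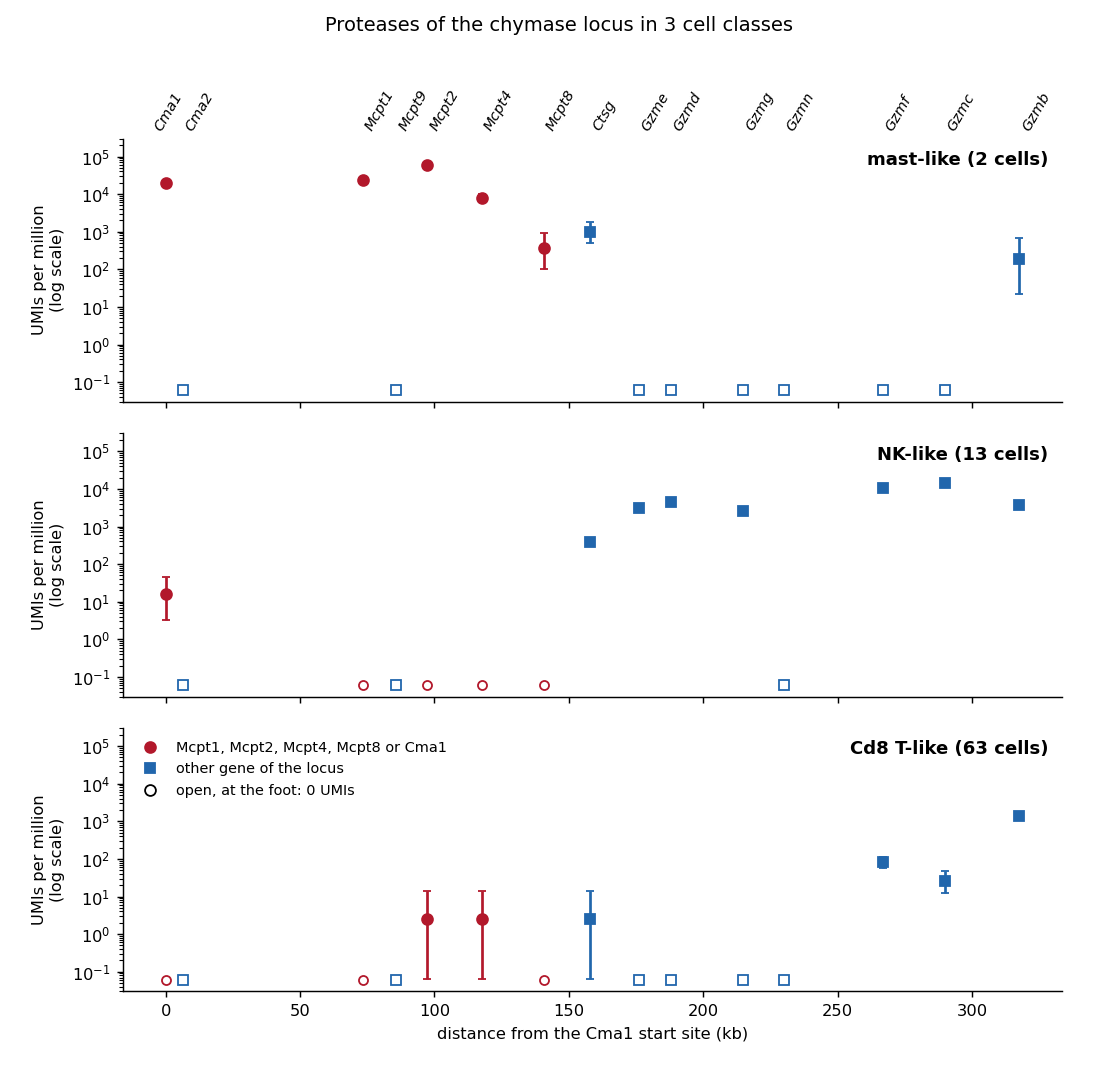
CPM (log axis) of the 15 genes of the chymase locus in mast-like, NK-like and Cd8 T-like cells, placed by the distance of their start sites from that of Cma1, with 95% Poisson intervals as bars where larger than the symbols. Circles are the 5 genes, squares the others, and open symbols at the foot mark 0 UMIs. The 5 genes lie at 366.8 to 59600 in the mast-like cells, where Ctsg (1009) and Gzmb (183) were also found, and in the NK-like cells Ctsg and the granzymes other than Gzmn lie at 383 to 14336, with Cma1 at 15.9.

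The mast-like cells were also set against the T and NK-like cells over all genes with at least 5 UMIs, observed or predicted from the T and NK-like level, in the mast-like cells. Of 437 such genes, 27 (6.18%) were at least 10-fold higher and 6 (1.37%) at least 10-fold lower in the mast-like cells. Mcpt1, Mcpt2, Mcpt4 and Cma1 entered this comparison only through their UMIs in the mast-like cells, since at most 0.07 UMIs of each were predicted there, so their place among the higher genes followed from entering and is not counted as a result. Mcpt8, with 4 UMIs, did not enter. Mcpt1 was at least 6138-fold higher (3 UMIs set as the limit for the 0 in T and NK-like cells), and Cma1 was 3159-fold higher (1333 to 9827). The mast granule genes Cpa3, Kit, Hdc, Tpsb2 and Tpsab1 entered in the same way, and Cpa3 and Kit had chosen the cells. Their UMIs in the mast-like and in the T and NK-like cells were 55 and 0 for Cpa3, 6 and 6 for Kit, 11 and 0 for Hdc, 34 and 0 for Tpsb2 and 13 and 0 for Tpsab1. Ndst2, which modifies the heparin of mast cell granules, had 2 and 8.

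Of the 7 other locus genes that entered, Ctsg was at least 10-fold higher (11-fold, 5.25 to 20.8) in the mast-like cells. It entered only through its UMIs there, since fewer than 5 were predicted. A higher level of Ctsg thus followed from entering and is not counted as a result. All 11 of its UMIs there were in cell A, and 72 of its 73 in T and NK-like cells were in 1 NK-like cell. The fold of Ctsg therefore rests largely on 1 cell of each class. Gzmb had 2 UMIs in the mast-like cells where 19.4 were predicted. Its ratio of 0.103 (0.0125 to 0.373) was below 1 but just short of the 10-fold limit. Gzmc, at 0 UMIs, was at least 10-fold lower (at most 0.08 of the T and NK-like level). Gzmd, Gzme, Gzmf and Gzmg were also at 0 in the mast-like cells, but too few UMIs were predicted there for a difference of that size to be seen. The same holds for Nkg7, Prf1, Ctsw, Gzma and the IL-2 receptor chain Il2rb, so their missing call does not speak for a like level. Srgn, the serglycin gene, was high in both classes, with 5135 CPM in the mast-like and 1863 in the T and NK-like cells, a ratio of 2.76 (2.07 to 3.60). Srgn was not particular to these classes, since myeloid-like cells had 1901 CPM. Nkg7, a granule membrane protein of killer cells, was at 0 in the mast-like and 2686 CPM in the T and NK-like cells, and Prf1 and Ctsw were also at 0 in the mast-like cells. Ctsc, the protease that activates granzymes and chymases, had 2 UMIs in cell A, or 183 CPM over both cells, against 120 in T and NK-like cells. Gzma had 0 UMIs in the mast-like cells against 717 CPM in the T and NK-like cells, and Il2rb 0 against 549 CPM. No gene of the lists for NK maturation, tissue residency, transcription factors or the cell cycle had enough UMIs to be set side by side.

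Genes with a pattern like that of the 5 were ranked by the cosine of their levels with the summed level of the 5 over 12 cell groups, among 14146 genes with at least 20 UMIs. The leading 3 were Cpa3 (74 UMIs), Tpsb2 (54) and Tpsab1 (27) at cosines that rounded to 1, each without a UMI in T and NK-like cells. The mast-like cells were among the 12 groups and had been chosen by Cpa3 and Kit, so the rank of Cpa3 followed from that choice. The 5 genes were far higher in that group than in any other, so any gene largely kept to it comes near 1. The ranking is therefore a description. Alox5, which makes leukotrienes, ranked sixth, with 4 UMIs in cell A and 1 in cell B. The other 6 genes, 4930481B07Rik, Gm28529, Tex101, Gnaz, 6430573P05Rik and Ccdc159, had 1 or 2 UMIs in the mast-like cells, whose small total makes each UMI weigh heavily in this measure.

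Some of the 5 genes are close copies, which could limit how surely a UMI is given to one of them. How reads were divided among them was not tested. The longest coding transcripts of Mcpt1 and Mcpt4 were identical at 85.7% of aligned bases with a longest shared run of 46 bases, those of Mcpt1 and Mcpt2 at 82.2% with a run of 49, and those of Mcpt2 and Mcpt4 at 79.9% with a run of 33. Mcpt4 and Cma1 were identical at 71.4%. Mcpt8 was the most distant of the 5, at 65.2% to 69.6% with the other proteases compared and with runs of 15 bases or fewer.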

How the data were processed

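The values analysed were the UMI counts per gene and called cell that the authors deposited for 1 library of control MC38 tumors, 5 pooled, made with a droplet kit that reads transcript ends. Cell Ranger produced them; its version is 5.0.1 in the header of the counts but V3 in the study, on GRCm38/mm10, and which applies was not settled.

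The 5 genes, the gene lists and the rules were chosen with earlier results of these data known. Cells with fewer than 200 genes (0 cells) or over 20% mitochondrial UMIs (667 cells) were removed. The 197 cells with the most simulated doublets (2 simulated per cell) among their neighbors were removed as doublets, a number set by 0.8% per 1000 cells. After scaling to 10000 UMIs and log transformation, 2000 variable genes, 30 principal components and 20 neighbors were used for Leiden clustering (resolution 0.5), which gave 11 clusters.

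A cluster took a name from a marker list with 3 or more raised genes (5 UMIs and a 2-fold higher level than elsewhere) if 50% of its cells or more held 2 list genes. Shallow clusters, under the library median divided by 3, also needed a list gene among their 10 leading genes. Clusters in which Shisal2b and Rhox5 exceeded the myeloid-like level 5-fold were called by those genes. These names may not match the study's own. In the T and NK-like cluster, NK-like cells had 2 or more UMIs of Ncr1, Klrb1c, Klra8 and Klra4 and more of these than of T cell genes. Cd8 T-like cells had Cd8a or Cd8b1 and no Cd4. Mast-like cells had UMIs of both Cpa3 and Kit, whatever their cluster.

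Levels are UMIs of a gene per 1000000 UMIs of the class (CPM), with intervals at 95%, and a count of 0 was bounded by 3 counts. No test between samples was possible with 1 library. The planned ratio of NK-like to Cd8 T-like levels was not formed because both classes held 3 or fewer UMIs. The genes named were the 5, the lists set out for the locus, granules, mast cells, NK maturation, residency, IL-2 signals, factors and cycling, and the 10 most alike in pattern. Gzmc-rich single cells, the third cell by UMIs and removed cells were picked out after their values were seen. Mcptl and Znf683 of these lists were not analysed here. Gene positions and transcripts came from GENCODE M21, promoters from RefSeq (GRCm38.p6). The scripts were tested on simulated data. They ran in Python 3.11.15: leidenalg 0.10.2 and igraph 0.11.9 for clusters, scikit-learn 1.9.0 for neighbors, scipy 1.17.1 for intervals, Biopython 1.88 for alignments, and numpy 2.4.6, pandas 2.3.3 and matplotlib 3.10.9.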

Additional observations from a re-analysis of the deposited data

How the results depend on the processing

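No paired analysis was possible because the series as analysed here holds 1 sample. Of 51 alternatives, 45 left a value within its counting interval, or a number of cells as it was, and 6 did not. Without the NK-like cell that held the 3 Cma1 UMIs, the level of the 5 genes in NK-like cells was 0. With classes called over all kept cells it was 0.632 CPM, because 1095 of the 1131 cells then called NK-like were Shisal2b- and Rhox5-high cells, which hold Klra4. With a limit of 10% mitochondrial UMIs, the share with Gzmb among T and NK-like cells without a UMI of the 5 genes was 63.9%. With 2 UMIs required, 1 cell was left with the 5 genes and 100% of it held Gzmb. Chosen after seeing the data, leaving out the mast-like cells raised the share of the UMIs of the 5 genes in T and NK-like cells to 6.54% (2.67 to 13.0), where these cells held 0.859% of all UMIs, and leaving out the cells with Cpa3 and Kit gave 0 basophil-like cells. The share of the UMIs in the mast-like cells stayed between 91.1% and 92.3% under the cell filters tried. The ratio of NK-like to Cd8 T-like cells was not run under any alternative. In the 188192 UMIs of the 13 NK-like cells, 3 counts come to 15.9 CPM.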
